A study of Mus musculus with 8 samples.

Results

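The joint change that feeders and 2i made together in mouse embryonic stem cells (ESCs) grown in serum was described by setting the 2 samples labelled N33_F2i against the 2 labelled N33_G, chosen by their culture condition from 8 samples in 4 conditions. N33 is an ESC line whose strain is labelled C57BL/6 (C57BL/6J in the study's methods), and all samples came from this 1 line. In the gelatin condition (N33_G) the cells grew in serum with LIF on gelatin-coated plates without feeders. In F2i (N33_F2i) they grew in serum with LIF on feeders with 2i added. The feeder layer was made of mouse embryonic fibroblasts treated with mitomycin C so that they no longer divide, and per the sample labels the ESCs were taken off the feeders in 2 rounds by their difference in adherence. The 2i cocktail is a pair of inhibitors, CHIR99021 against GSK3 and PD0325901 against MEK; its dose in F2i is not given in the sources used here. Serum and LIF were on both sides. The conditions F (N33_F, feeders in serum with LIF, no 2i) and NB2i (N33_NB2i, N2B27 medium with 2i and LIF, without feeders or serum) are quoted only to place a level. No sample had 2i in serum without feeders, so the part of each addition and any interaction between them cannot be told apart beyond the level in F.

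LIF holds mouse ESCs in self-renewal through STAT3. Inhibition of GSK3 stabilises beta-catenin, and inhibition of MEK blocks the ERK signal by which FGF4 moves ESCs towards differentiation. Cells in 2i are known for high naive pluripotency factors, low de novo DNA methyltransferases and low ERK target genes, while feeders supply matrix, LIF and other secreted factors. A small share of ESCs at any time passes through a state that resembles the 2-cell embryo and is marked by Zscan4.

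RSEM's expected counts summed to between 20129641 and 20442552 in the 4 samples, so that depth was close to equal. Of 20278 genes in the files, 15287 had enough counts to be tested. Pluripotency factors in all 4 samples were at the high levels of ESCs, as given for Pou5f1, Sox2 and Nanog below. The biological coefficient of variation was 3.254%, a spread so small that modest changes pass the test. With 2 samples a group, exact permutation reaches no p below 0.3333, so that every adjusted p given here rests on edgeR's model. The study calls the replicates biological; the labels do not say whether they came from separate cultures, and p-values measure the spread between these samples.

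At least a 2-fold rise at an adjusted p under 0.05 was seen for 1786 genes (11.7% of those tested), and at least a 2-fold fall for 1501 (9.82%), by the quasi-likelihood test of edgeR (p adjusted after Benjamini and Hochberg). Without the fold limit, 5281 genes (34.5%) were higher and 5083 (33.3%) lower in F2i. The median log2 fold change of all genes tested was 0.01, so that rises and falls lay on either side of a centre near 0. Genes with the large rises were mostly low on gelatin: 1176 of the 1786 were under 1 FPKM there. Of these, 860 were also under 1 FPKM in NB2i, the other condition without feeders. The same counts were not made over all genes tested, so these 2 counts have no background share. By the mean of the 4 samples, 3266 of the 15287 genes were under 1 FPKM, and 24.9% of these rose at least 2-fold. The genes that rose 2-fold or more made up 4.99% of the summed FPKM in F2i.

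**Figure D1:**
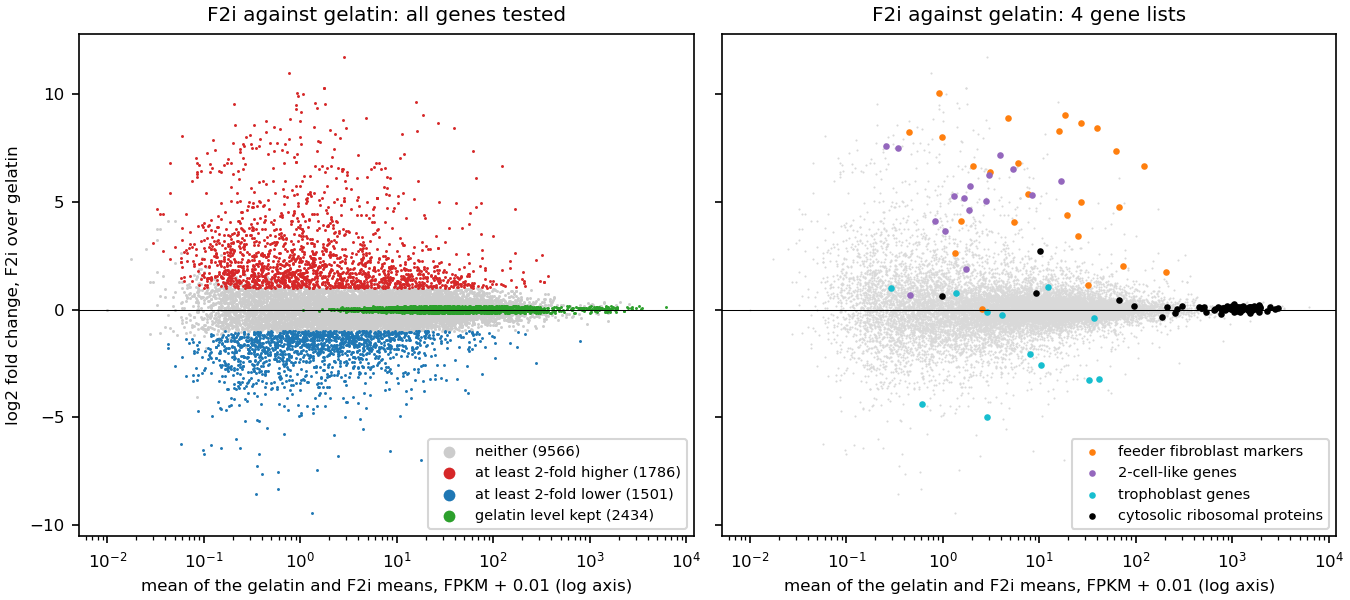
Log2 fold change of F2i over gelatin (vertical axis) against the mean level of each of 15287 genes (horizontal log axis, FPKM + 0.01). Left, genes are coloured by class, with 2434 genes that kept their gelatin level in a band at 0; right, feeder fibroblast markers and 2-cell-like genes lie above the cloud, several trophoblast genes below it and cytosolic ribosomal proteins at its centre.

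Most naive factors rose, and the core factors Pou5f1 and Sox2 stayed within 1.2-fold of gelatin. Of 18 naive and core pluripotency factors, 12 rose at least 2-fold (66.7%, against 11.7% of all genes) and none fell 2-fold. The median log2 fold change was 1.23 against 0.01 over all genes. Tbx3 (chromosome 5, 119670534 to 119684724), a T-box factor of naive cells, was at 6.70 and 7.22 FPKM on gelatin and at 104 and 106 FPKM in F2i. Its log2 fold change was 3.98 (standard error 0.05, adjusted p = 9.1e-24), the largest of the list. The level in F, 26.6 and 27.3 FPKM, lay between the groups, and no sample of one group overlapped the other.

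Klf2 and Klf4, Krüppel-like factors of the naive network, followed another course. Klf2 was at 50.3 and 47.7 FPKM on gelatin, 234 and 227 FPKM in F and 281 and 302 FPKM in F2i (log2 fold change of F2i over gelatin 2.63, standard error 0.05, adjusted p = 7.4e-21). Klf4 stood at 54.2 and 54.7 FPKM on gelatin, 199 and 200 FPKM in F and 241 and 248 FPKM in F2i (2.23, standard error 0.04, adjusted p = 5.6e-21). For both genes the F level was already near the F2i level. Tfcp2l1, a transcription factor under LIF and 2i control, had its F level nearer to gelatin, with 24.2 and 26.7 FPKM on gelatin, 42.6 and 43.3 FPKM in F and 135 and 122 FPKM in F2i (log2 fold change 2.40, adjusted p = 1.1e-19).

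Nanog, the homeobox factor of naive pluripotency, went from 209 and 199 FPKM on gelatin to 465 and 482 FPKM in F2i (log2 fold change 1.29, standard error 0.04, adjusted p = 4.3e-17), a level above that of NB2i at 295 and 304 FPKM. Nr5a2, Tcl1, Fbxo15, Prdm14, Nr0b1, Klf5 and Tdh also rose at least 2-fold, with log2 fold changes from 1.08 (Tdh, threonine dehydrogenase) to 1.95 (Nr5a2, an orphan nuclear receptor). Klf5 was at 1.09, and without gelatin replicate 1 it was at 0.98 and under the 2-fold limit. Esrrb (0.76), Zfp42 (0.64) and Sall4 (0.48) rose by less than 2-fold.

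Pou5f1 (Oct4; chromosome 17, 35506032 to 35510777) and Sox2 (chromosome 3, 34649995 to 34652461), the core factors, kept their gelatin level. Pou5f1 was at 606 and 569 FPKM on gelatin and 602 and 620 FPKM in F2i, with a 95% interval of the log2 fold change from 0.03 to 0.21 (adjusted p = 0.022). Sox2 was at 265 and 256 FPKM on gelatin and 236 and 244 FPKM in F2i, with an interval from -0.15 to 0.03. Both intervals lay within 1.2-fold either way (0.263 on the log2 scale), the limit used throughout for a level that was kept. Of 75 kept genes named by rule, 39 met it in each of 12 alternative fits, Pou5f1 and Sox2 among them; where one described here did not, the number of fits that lost the call is given. Dppa3 (Stella), a maternal factor that guards methylation in the zygote, was the one member to fall, from 69.3 and 67.7 FPKM to 33.4 and 34.6 FPKM (log2 fold change -0.95, standard error 0.06, adjusted p = 2.2e-11).

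**Figure D2:**
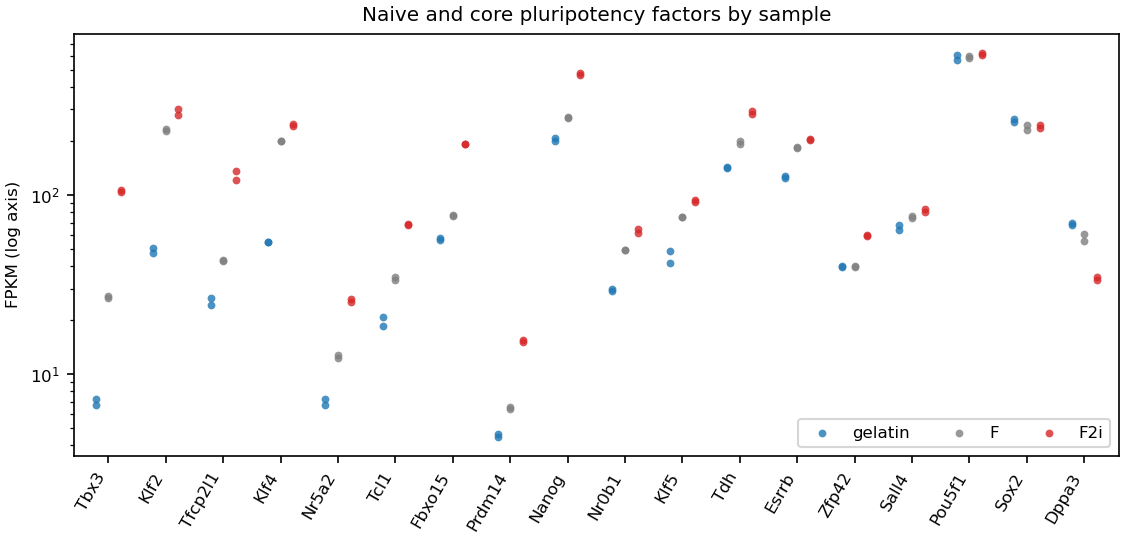
FPKM (log axis) of the 18 naive and core pluripotency factors in each sample of gelatin, F and F2i, ordered by the change from gelatin to F2i. Both F2i points lie above both gelatin points from Tbx3 to Sall4, Pou5f1 and Sox2 stay level and Dppa3 is lower.

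Genes of the formative and primed epiblast, the stages that follow naive pluripotency, mostly fell. Of 14 members, 7 fell at least 2-fold (50%, against 9.82% of all genes) and 1 rose at least 2-fold (7.14%, against 11.7%). None kept its level, and the median log2 fold change was -1.21. Fgf15, a fibroblast growth factor, fell by 3.38 on the log2 scale, Tcf15, a bHLH factor of cells leaving the naive state, by 3.33 and Pou3f1 (Oct6) by 2.76. Tcf15 was at 36.1 and 32.3 FPKM on gelatin, 28.8 and 27.6 FPKM in F and 3.16 and 3.33 FPKM in F2i. The F samples thus stood near gelatin for Tcf15 and far above F2i. Zic2, a zinc finger factor named here as the single rise of the list, went from 8.54 to 29.8 FPKM (means; log2 fold change 1.86, adjusted p = 6.5e-17).

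The ERK list, feedback inhibitors and early response genes of the pathway that PD0325901 blocks, mostly fell, but both kinds held members that rose. Of 18 members, 7 fell (38.9%, against 9.82% of all genes) and 2 rose (11.1%, against 11.7%) at least 2-fold. Without the fold limit 12 fell and 3 rose, against 33.3% and 34.5% of all genes, with a median of -0.70. Spry4, a Sprouty feedback inhibitor of receptor signalling, was at 20.5 and 21.2 FPKM on gelatin and 0.54 and 0.74 FPKM in F2i (log2 fold change -4.96, standard error 0.09, adjusted p = 4.5e-21). In F it was at 20.3 and 19.8 FPKM, the gelatin level. Etv4, an ETS factor induced by FGF, went from 52.8 and 52.2 FPKM to 5.40 and 5.84 FPKM (log2 fold change -3.16, standard error 0.06, adjusted p = 6.7e-21). Dusp6, the ERK phosphatase, fell by 2.59 on the log2 scale, Myc by 2.42, Dusp4 by 2.24 and Spred1 by 1.72.

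Other ERK genes did not follow Spry4. Etv5, the close relative of Etv4, was at 80.8 and 81.9 FPKM on gelatin and 79.8 and 83.5 FPKM in F2i, with an interval of the log2 fold change from -0.02 to 0.15, and so kept its level. Spry2, another Sprouty gene, rose from 56.1 and 55.0 FPKM to 74.1 and 72.7 FPKM (log2 fold change 0.46, adjusted p = 3.8e-09). Within the Sprouty and Etv families the members thus moved unequally. Spry1 (-0.83), Etv1 (-0.77), Spred2 (-0.63), Ier3 (-0.44) and Phlda1 (-0.25) fell by less than 2-fold; the call for Phlda1 is lost in 5 alternative fits. Dusp5 (log2 fold change 0.11, adjusted p = 0.39) and Fosl1 (-0.06, adjusted p = 0.92) did not pass the test and were not shown to keep their level either.

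The immediate early genes Fos, Egr1 and Egr2 differed in direction, with F far above gelatin in each. Fos (chromosome 12, 85473890 to 85477274), a subunit of AP-1, was at 2.48 and 2.90 FPKM on gelatin, 147 and 144 FPKM in F and 77.2 and 81.0 FPKM in F2i. The change of F2i over gelatin was 4.94 on the log2 scale (standard error 0.07, adjusted p = 5.0e-23), and in NB2i it was at 1.72 and 1.53 FPKM. High Fos was therefore seen in the samples with feeders. Egr1, a zinc finger factor induced by ERK, was at 8.58 and 8.36 FPKM on gelatin, 90.4 and 94.1 FPKM in F and 4.0 and 3.54 FPKM in F2i, so that F2i was below gelatin (log2 fold change -1.11, adjusted p = 4.3e-11) although F was far above it. Egr2 rose from 0.13 and 0.10 FPKM to 0.78 and 0.54 FPKM (log2 fold change 2.57, adjusted p = 1.0e-06), under its F level of 4.71 and 4.40 FPKM.

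Target genes of beta-catenin, which GSK3 inhibition stabilises, rose more often than they fell. Of 17 members, 7 rose (41.2%, against 11.7% of all genes) and 2 fell (11.8%, against 9.82%) at least 2-fold. The median log2 fold change was 0.86. Ccnd2 (cyclin D2; chromosome 6, 127125162 to 127152188) was at 1.32 and 1.24 FPKM on gelatin, 14.4 and 14.2 FPKM in F and 24.1 and 23.2 FPKM in F2i (log2 fold change 4.27, standard error 0.07, adjusted p = 6.0e-22). In NB2i, which holds the same inhibitors, Ccnd2 was at 0.19 and 0.28 FPKM, below gelatin. Cdx1, a caudal homeobox factor, rose by 3.48 on the log2 scale, and Axin2, the negative feedback gene of the pathway, by 2.48.

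Sp5, a zinc finger factor that beta-catenin induces directly in ESCs, was at 0.44 and 0.42 FPKM on gelatin, 1.2 and 1.02 FPKM in F and 3.50 and 3.93 FPKM in F2i (log2 fold change 3.16, standard error 0.18, adjusted p = 1.6e-12). It is shown with its promoter because, of the promoters of Sp5, Axin2 and Lef1, its own alone holds the letters CTTTGAT. These letters are the motif of the TCF factors that carry beta-catenin. The promoters of Cdx1, Ccnd2 and the other members of the list were left out, so Sp5 is not shown to be alone among the list. The window used for Axin2 (chromosome 11, 108920099 to 108920348) lies inside the gene as listed (108917828 to 108950783). Both strands were searched over the 250 bases before the start, and 3.21% of 32851 promoter windows of that length hold the motif. A match of letters is a description and not a binding site. The sequence is that of RefSeq on GRCm38.p6 at chr2:70474673-70474922, plus strand, 5′ to 3′, with the match in capitals:
Sp5: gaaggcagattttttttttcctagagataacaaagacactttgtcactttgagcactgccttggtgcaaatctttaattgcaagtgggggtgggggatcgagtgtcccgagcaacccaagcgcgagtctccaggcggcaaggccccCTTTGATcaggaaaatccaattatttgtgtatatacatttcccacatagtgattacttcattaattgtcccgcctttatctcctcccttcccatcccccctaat

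Lef1, itself a TCF family factor, kept its gelatin level, with 3.53 and 3.38 FPKM on gelatin and 3.09 and 3.35 FPKM in F2i (interval of the log2 fold change from -0.21 to 0.20; lost in 5 alternative fits), while F stood higher at 5.85 and 5.66 FPKM. The 2 falls of the list, named after their values were seen, were Nkd2 (-1.64, adjusted p = 3.1e-09) and Rnf43 (-2.02, adjusted p = 2.2e-05), both negative regulators of Wnt signalling.

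**Figure D3:**
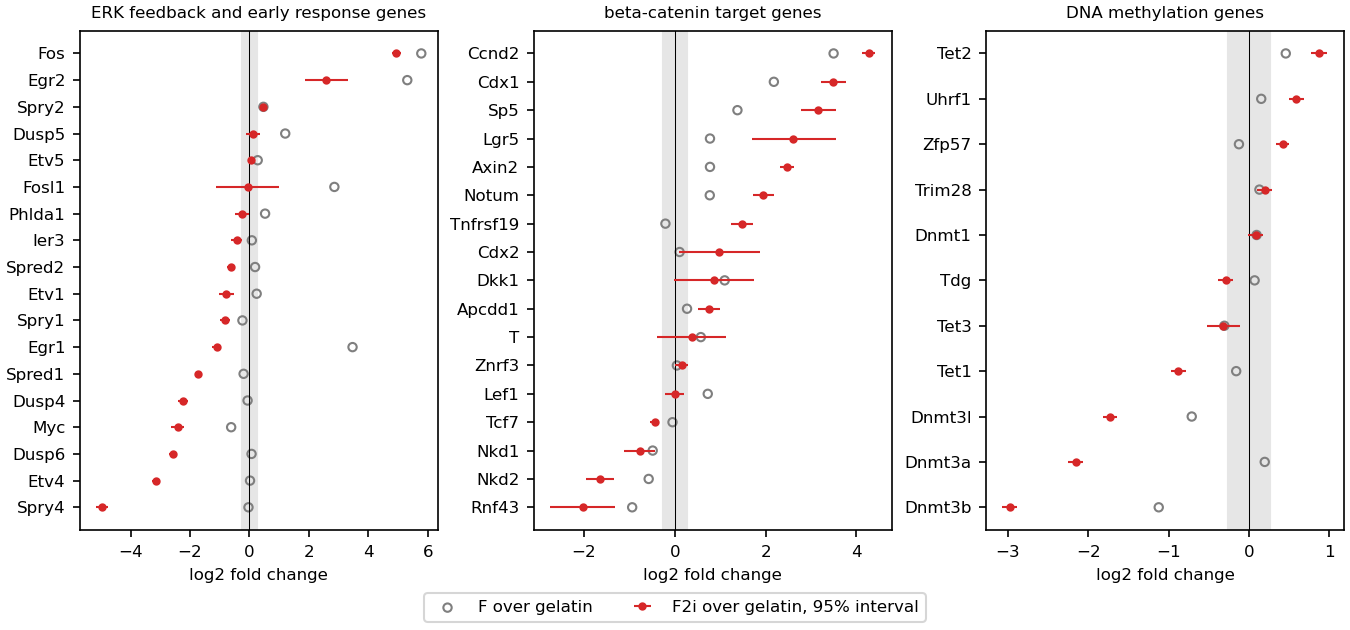
Log2 fold change of F2i over gelatin with its 95% interval (red) and of F over gelatin (open circles) for the ERK, beta-catenin and DNA methylation lists; the grey band is the limit of 1.2-fold for a level that was kept. Spry4, Etv4 and Dusp6 sit at 0 in F and far left in F2i, Fos and Egr1 lie far right in F, and Dnmt1, Etv5 and Lef1 stay inside the band in F2i. The contrasts share the gelatin samples.

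Of 11 members of the list of the LIF receptor, STAT3 and its targets, 2 rose at least 2-fold, Klf4 and Tfcp2l1, which also stand in the pluripotency list, and none fell 2-fold. The 2 rises were 18.2% of the list, against 11.7% of all genes. Without the fold limit 5 rose and 5 fell, against 34.5% and 33.3% of all genes, and the median log2 fold change was 0.03. Il6st, the gp130 signalling chain, kept its level with 14.5 and 16.2 FPKM on gelatin and 15.3 and 14.8 FPKM in F2i. Pim1, a kinase induced by STAT3, kept its level too, with 117 and 117 FPKM on gelatin and 101 and 102 FPKM in F2i, a call lost in 3 alternative fits. Named after their values were seen, Stat3 rose from 18.9 to 28.4 FPKM (means; log2 fold change 0.65) and Socs3, the feedback inhibitor of the pathway, fell from 55.4 to 28.2 FPKM (-0.91).

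Among Nodal, Activin and BMP genes, members changed in both directions. Lefty1 and Lefty2, paired inhibitors of Nodal, went opposite ways. Lefty1 was at 68.2 and 65.7 FPKM on gelatin, 90.2 and 90.3 FPKM in F and 12.6 and 12.9 FPKM in F2i (log2 fold change -2.33, standard error 0.06, adjusted p = 2.6e-19). Lefty2 was at 22.9 and 22.5 FPKM on gelatin and 53.9 and 54.2 FPKM in F2i (1.31, standard error 0.05, adjusted p = 2.0e-16). Smad7, the inhibitory SMAD, kept its level at 17.9 and 17.9 FPKM on gelatin and 16.2 and 15.2 FPKM in F2i, a call lost in 4 alternative fits. Of the 10 members of the Nodal list, 3 rose (30%) and 2 fell (20%) at least 2-fold, against 11.7% and 9.82% of all genes.

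Of 16 genes in the BMP list, 7 rose (43.8%) and 3 fell (18.8%) at least 2-fold, against 11.7% and 9.82% of all genes. The median was 0.51. Bmp4, the ligand, went from 10.8 and 9.28 FPKM to 1.06 and 1.45 FPKM (log2 fold change -2.96, standard error 0.13, adjusted p = 1.7e-14), and Bmp8b fell by 3.58 on the log2 scale. The receptors Bmpr1a (-0.05) and Bmpr2 (-0.08) kept their level, the latter call being lost in 5 alternative fits. Among the Id genes, targets of BMP signalling, Id4 rose from 2.52 and 2.49 FPKM to 9.74 and 8.29 FPKM (log2 fold change 1.91, adjusted p = 2.6e-12). Named after their values were seen, Id3 rose by 1.68 and Id1 fell by 1.83 on the log2 scale. Fstl1, a secreted BMP antagonist, was at 24.9 and 25.3 FPKM on gelatin, 51.5 and 51.0 FPKM in F, 65.6 and 66.0 FPKM in F2i and 17.4 and 16.7 FPKM in NB2i (log2 fold change of F2i over gelatin 1.45, adjusted p = 1.2e-17).

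Inhba, the Activin A subunit, was at 0.06 and 0.16 FPKM on gelatin and 7.56 and 7.60 FPKM in F2i (log2 fold change 6.08, standard error 0.27, adjusted p = 8.8e-15), with 0.03 FPKM and 0 FPKM in NB2i. Grem1, a BMP antagonist, had 1 and 0 expected counts on gelatin and 88 and 108 in F2i, a ratio of 198 (exact 95% interval 35.1 to 7.85e+03, counting error only). Both stood at 0.16 FPKM or less in the conditions without feeders, gelatin and NB2i. The part of fibroblast RNA in their levels was not tested.

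Markers of the feeder fibroblasts rose nearly without exception. Of 25 markers, 24 rose at least 2-fold, and Twist1 (log2 fold change 0.02, adjusted p = 0.91) was the exception; the median was 6.38, or 4.98 with the 3 markers at 0 on gelatin (Lum, Vcam1 and Ccl2) set at their bound. Their summed level was 172 and 166 FPKM on gelatin, 669 and 696 FPKM in F, 1384 and 1360 FPKM in F2i, and 422 and 400.4 FPKM in NB2i. Fn1 (fibronectin), which ESCs also express, was the highest marker in each sample. In F2i no marker was at 0, while Lum, Vcam1 and Ccl2 were at 0 in both gelatin samples and Dcn in replicate 2. Since these are bulk samples, more cells of a type and more RNA per cell cannot be told apart.

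Single markers give the scale. Col3a1, a fibrillar collagen, was at 0.10 and 0.05 FPKM on gelatin, 13.2 and 14.1 FPKM in F and 37.6 and 36.9 FPKM in F2i (log2 fold change 9.02, standard error 0.12, adjusted p = 1.8e-23). Postn (periostin) was at 0.17 and 0.11 FPKM on gelatin, 17.5 and 18.8 FPKM in F and 55.0 and 52.7 FPKM in F2i. Both markers were higher in F2i than in F. Vcam1, an adhesion molecule, was at 0 in both gelatin samples, 1.96 and 1.72 FPKM in F and 1.99 and 1.65 FPKM in F2i, at least 84.8-fold higher in F2i than a floor of 3 counts over the gelatin group. The part of remaining feeder cells in the rises of other genes was not tested.

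The 10 largest rises, taken in order of fold change among genes of at least 1 FPKM, are given with their counts where gelatin was at or near 0. Prelp (chromosome 1, 133910304 to 133930102), a leucine-rich matrix proteoglycan, had no counts on gelatin and 417 and 414 in F2i, at least 280-fold higher against the floor of 3 counts over the group. In F2i it was at 5.71 and 5.60 FPKM, in F at 0.68 and 0.75 FPKM. Its F level was thus well under its F2i level. Fmod (fibromodulin; at least 83.1-fold higher) and Dpt (dermatopontin; at least 61.9-fold higher) had the same order, at 0.26 and 0.15 FPKM and 0.36 and 0.42 FPKM in F against 2.14 and 2.10 FPKM and 2.75 and 2.83 FPKM in F2i. Actg2, smooth muscle actin gamma, had 2 and 0 counts on gelatin and 854 and 834 in F2i, a ratio of 852 (exact 95% interval 235 to 7.04e+03).

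Sdpr, a caveolar protein, was at least 78.7-fold higher and Dnm3os, an RNA antisense to Dnm3, at least 163-fold higher; whether the counting used strand is not stated, so that reads of Dnm3os and Dnm3 cannot be told apart. Gm13057 and Gm13040 carry identical values in every sample (3.4 and 3.56 FPKM in F2i), as reads shared by copies would, and are uncertain. Gm4340 was listed at 5.95 FPKM in F2i replicate 1 and 1.17 FPKM in replicate 2, so that its replicates differ, and DESeq2 does not call it; it has near-identical copies and is uncertain.

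The largest falls were of other kinds. Gm3317 and H2-Q8 were at 0 in both F2i samples and at 0.92 to 1.37 FPKM on gelatin, but both have near-identical copies and DESeq2 does not call them. Gna14, a G protein alpha subunit, had 186 and 221 counts on gelatin and 2 and 0 in F2i, a ratio of gelatin over F2i of 202 (exact 95% interval 55.5 to 1.67e+03). Car4 (carbonic anhydrase 4; chromosome 11, 84957754 to 84966054), a membrane enzyme, was at 36.2 and 35.01 FPKM on gelatin, 21.3 and 19.9 FPKM in F, 0.27 and 0.26 FPKM in F2i and 0.04 FPKM in both NB2i samples. On the log2 scale the change was -6.98 (standard error 0.14, adjusted p = 1.9e-20), the largest of these 10 falls with counts in every sample. Fndc3c1 (-6.79), 2610528J11Rik (-6.55), Bnipl (-5.82), Sel1l3 (-5.79), Slc40a1 (ferroportin, the iron exporter; -5.52) and Tmem54 (-5.09) followed. For Car4 and these 6 genes F lay below gelatin and far above F2i.

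The 2-cell-like genes had the largest median rise of the ESC lists. Of 21 genes listed, 20 were in the files and 16 were tested, of which 15 rose at least 2-fold; several were chosen by the study on its F and gelatin samples, so that their direction is not independent evidence. The median log2 fold change was 5.29, or 5.10 with Zfp352 and Usp17ld, at 0 on gelatin, set at their bounds. The other tested member, Sp110, was at 0.66 (adjusted p = 0.12). The 5 Zscan4 genes in the files are near-identical zinc finger and SCAN domain genes of the 2-cell embryo, between which RSEM divides shared reads, so their counts were also summed. The sum was 55 and 44 on gelatin, 1154 and 1208 in F, 2854 and 2851 in F2i, and 5 and 1 in NB2i (log2 fold change of F2i over gelatin 5.92, standard error 0.09, adjusted p = 1.7e-22). No sample of one condition overlapped another, and F2i was the highest and NB2i the lowest.

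Zscan4f (chromosome 7, 11397915 to 11402318) was the highest member, at 0.55 and 0.53 FPKM on gelatin and 32.0 and 33.3 FPKM in F2i. Zscan4a had the largest change of the family, from 0.05 and 0.04 FPKM to 7.85 and 7.74 FPKM (log2 fold change 7.16, standard error 0.26). Zscan4b, Zscan4c and Zscan4d had log2 fold changes of 5.33, 6.52 and 5.03. Outside the family, Tmem92 went from 0.10 and 0.07 FPKM to 6.02 and 5.86 FPKM (log2 fold change 6.24), the 5 Usp17l deubiquitinase genes, summed, from 56.3 and 49.7 counts to 389 and 356 (2.88), and the Tcstv pair from 4.5 and 3.5 counts to 107 and 128 (5.09). All 3 were lower in F than in F2i and lower still on gelatin.

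The promoters of 4 of the Zscan4 genes are in the RefSeq table and are shown because their members rose together and share 1 motif. Each holds the letters TGATT, any 2 bases and ATC, the core of the motif of DUX, the homeobox factor of the 2-cell embryo, once on either strand within the 250 bases before the start, against 0.478% of 32851 promoter windows of that length. Between pairs the windows were 94.7% to 99.6% identical over the 216 to 250 bases that align, so that the 4 matches lie in near-identical sequence and are not separate observations. Given 5′ to 3′ on GRCm38.p6 with the match in capitals, they lie at chr7:10905051-10905300 on the minus strand (Zscan4b), chr7:11005495-11005744 on the plus strand (Zscan4c), chr7:11166149-11166398 on the minus strand (Zscan4d) and chr7:11397665-11397914 on the plus strand (Zscan4f):
Zscan4b: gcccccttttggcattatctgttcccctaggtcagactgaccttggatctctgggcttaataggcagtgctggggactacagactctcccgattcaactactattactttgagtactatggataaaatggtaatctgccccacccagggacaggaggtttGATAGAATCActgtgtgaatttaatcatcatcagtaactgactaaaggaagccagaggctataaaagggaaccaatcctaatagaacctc
Zscan4c: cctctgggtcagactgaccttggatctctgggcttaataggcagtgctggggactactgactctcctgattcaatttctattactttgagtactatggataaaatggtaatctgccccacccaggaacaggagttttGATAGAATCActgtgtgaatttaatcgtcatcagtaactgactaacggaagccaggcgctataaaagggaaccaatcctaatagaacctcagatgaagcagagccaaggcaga
Zscan4d: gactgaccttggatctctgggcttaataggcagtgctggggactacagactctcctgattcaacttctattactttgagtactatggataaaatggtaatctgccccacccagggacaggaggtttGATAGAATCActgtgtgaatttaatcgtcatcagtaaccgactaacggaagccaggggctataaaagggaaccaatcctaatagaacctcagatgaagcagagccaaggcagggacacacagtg
Zscan4f: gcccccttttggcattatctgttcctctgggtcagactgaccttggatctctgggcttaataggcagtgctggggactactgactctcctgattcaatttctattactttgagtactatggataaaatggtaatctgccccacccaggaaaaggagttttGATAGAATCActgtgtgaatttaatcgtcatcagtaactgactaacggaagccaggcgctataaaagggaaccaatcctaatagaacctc
The match begins 90 bases before the start in Zscan4b and Zscan4f, 113 in Zscan4c and 124 in Zscan4d. Of these, Zscan4f and Zscan4b had the highest FPKM in F2i, but RSEM divides shared reads between the copies. Whether the position of the match goes with the level was not tested.

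Genes of DNA methylation changed by part of the machinery. Of 11 members, 3 fell at least 2-fold (27.3%, against 9.82% of all genes), and these were the de novo enzymes and their cofactor. None rose 2-fold, and the median was -0.29. Dnmt3b (chromosome 2, 153649411 to 153687730), a de novo methyltransferase, was at 135 and 140.4 FPKM on gelatin, 62.2 and 62.4 FPKM in F and 16.8 and 17.2 FPKM in F2i (log2 fold change -2.98, standard error 0.05, adjusted p = 1.1e-22). Dnmt3a, the other de novo enzyme, was at 36.6 and 38.4 FPKM on gelatin, 41.4 and 43.2 FPKM in F and 7.91 and 7.75 FPKM in F2i (-2.16, standard error 0.05, adjusted p = 4.8e-20). Dnmt3a was thus not lower in F than on gelatin, whereas Dnmt3b was. Dnmt3l, their cofactor, went from 274 and 272 FPKM to 77.6 and 79.6 FPKM (-1.73, standard error 0.04, adjusted p = 3.3e-19), with 8.01 and 8.55 FPKM in NB2i.

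The maintenance side kept or raised its level. Dnmt1, the maintenance methyltransferase, kept its level with 65.2 and 70.9 FPKM on gelatin and 69.8 and 68.0 FPKM in F2i, and its partner Uhrf1 rose from 118 and 124 FPKM to 171 and 177 FPKM (log2 fold change 0.59, adjusted p = 7.1e-11). The Tet dioxygenases, which oxidise methylcytosine, went different ways: Tet1 was at -0.88 and Tet2 at 0.88, both past the test. Tet3 (-0.32) and Tdg (-0.29) fell and Zfp57 (0.42) and Trim28 (0.19) rose by small amounts; the call for Tet3 is lost in 4 alternative fits. Of 16 germline genes known to be silenced by methylation, 15 were tested (median 0.50). Of these, 4 rose (26.7%) and 2 fell (13.3%) at least 2-fold, against 11.7% and 9.82% of all genes. Dazl, an RNA-binding protein of germ cells, rose from 3.07 and 3.27 FPKM to 14.9 and 14.6 FPKM (2.28, adjusted p = 2.1e-16), and Hormad1, a meiotic chromosome protein, from 6.15 and 6.74 FPKM to 25.01 and 22.1 FPKM (1.95). Tdrd1, a piRNA pathway gene, fell by 2.41 on the log2 scale.

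Among lineage lists, trophoblast genes fell most. Of 12 tested, 6 fell (50%) and 1 rose (8.33%) at least 2-fold, against 9.82% and 11.7% of all genes. The median was -1.23. Krt18, a keratin of simple epithelia, was at 78.2 and 74.3 FPKM on gelatin, 37.2 and 36.7 FPKM in F and 7.30 and 8.28 FPKM in F2i (log2 fold change -3.23, standard error 0.07, adjusted p = 4.4e-20). Its partner Krt8 went from 59.9 and 58.9 FPKM to 5.52 and 6.16 FPKM (-3.28). The bHLH factor Hand1 was at 6.07 and 5.16 FPKM on gelatin and 0.10 and 0.23 FPKM in F2i (-4.96, standard error 0.25, adjusted p = 1.1e-13). In Krt8, Krt18 and Hand1 alike, both F2i samples lay below both F samples and these below both gelatin samples.

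Primitive endoderm genes gave no common direction. Of 16 tested, 4 rose (25%) and 2 fell (12.5%) at least 2-fold, against 11.7% and 9.82% of all genes. The gelatin level was kept by 2 (12.5%, against 15.9% of all genes), and the median was 0.62. Sparc, a matrix glycoprotein that fibroblasts make as well, rose from 99.2 and 95.1 FPKM to 450 and 463 FPKM (log2 fold change 2.29, standard error 0.04, adjusted p = 3.9e-21), with 456 and 457 FPKM in NB2i, where there were no feeders. Dab2, an endocytic adaptor, kept its level at 2.02 and 2.05 FPKM on gelatin and 1.90 and 1.91 FPKM in F2i, with F at 5.07 and 5.25 FPKM; its call is lost in 6 alternative fits. Of 11 neural and mesoderm genes tested (median -0.31), 3 rose (27.3%) and 2 fell (18.2%) at least 2-fold, against 11.7% and 9.82% of all genes. Neurod1, a neural bHLH factor, went from 16.1 and 14.9 FPKM to 2.01 and 1.81 FPKM (-2.96), and Gsc (goosecoid) from 0.54 and 0.29 FPKM to 2.85 and 3.24 FPKM (2.91).

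Most genes of G1 control and most Polycomb subunits passed the test, few of them with a 2-fold change. Of all genes tested, 34.5% were higher and 33.3% lower without the fold limit. Of 20 genes of G1 control, 2 rose at least 2-fold, Ccnd2 and the inhibitor Cdkn1a (p21), which went from 38.0 and 34.1 FPKM to 129 and 129 FPKM (log2 fold change 1.90, adjusted p = 7.7e-19), and 4 fell. Cdkn1c (p57) fell by 2.91 on the log2 scale, while Cdk4, Cdk6 and Cdkn1b (p27) kept their level (Cdk4 lost in 1 alternative fit). The 2-fold shares of G1 control were 10% higher and 20% lower, against 11.7% and 9.82% of all genes. Without the fold limit 10 rose and 8 fell. Of 24 Polycomb subunits, 3 rose (12.5%) and 2 fell (8.33%) at least 2-fold, shares near the 11.7% and 9.82% of all genes, and 4 kept their level (median 0.06). Without the fold limit 12 rose and 10 fell. Cbx8 (2.30) and Bmi1 (1.67), parts of the canonical complex PRC1, rose, and Phf19, an accessory part of PRC2, fell by 2.29, while the catalytic subunits Ezh2 and Rnf2 kept their level (Rnf2 lost in 2 alternative fits).

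Of 20 tested genes of telomerase, shelterin and telomere recombination, none rose or fell 2-fold by edgeR's quasi-likelihood test. Without the fold limit 5 rose and 11 fell (median -0.19), against 34.5% and 33.3% of all genes. In each list for which no 2-fold change is given in a direction, the number was also 0 at an unadjusted p under 0.05 and by DESeq2. Tert, the catalytic subunit of telomerase, was at 6.11 and 7.20 FPKM on gelatin and 5.42 and 5.31 FPKM in F2i (log2 fold change -0.25, adjusted p = 0.012), and its call is lost in 3 alternative fits. Blm and Rtel1, helicases that act on telomeres, kept their level (Blm lost in 2 alternative fits).

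**Figure D4:**
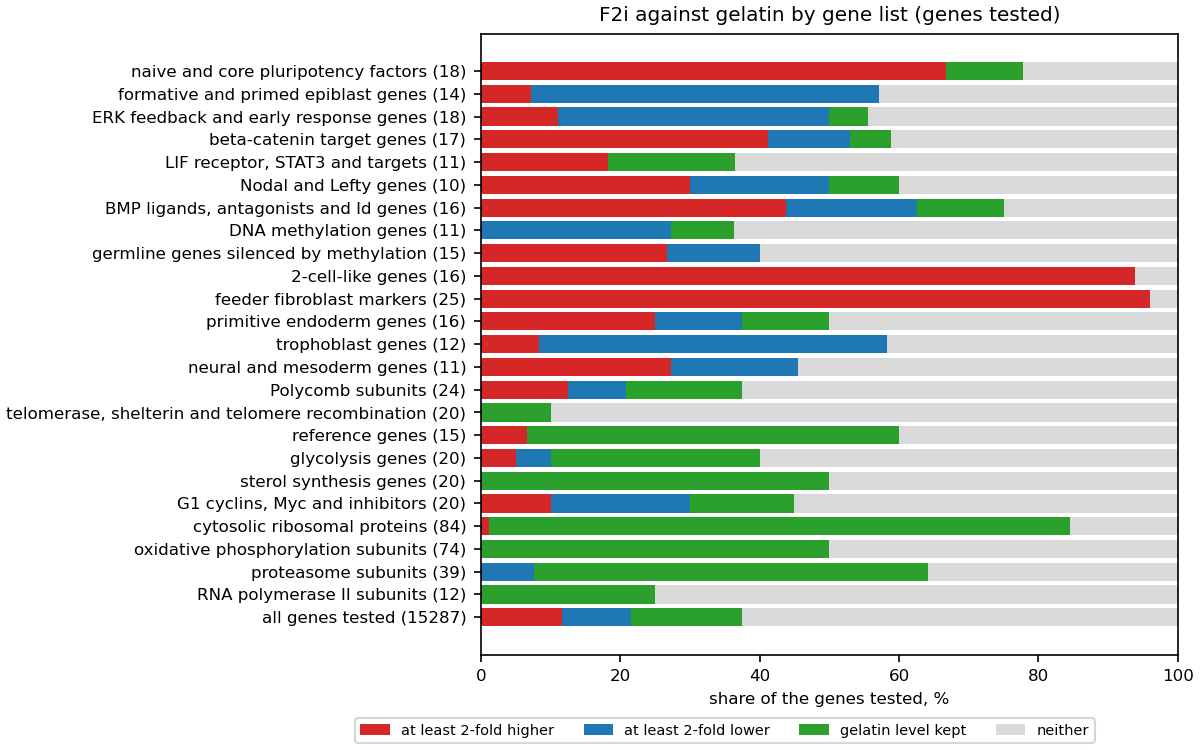
Share of the tested genes of each list (number in brackets) that rose at least 2-fold, fell at least 2-fold, kept the gelatin level or did none of these. Feeder fibroblast markers (96.0%) and 2-cell-like genes (93.8%) were mostly higher, and 83.3% of cytosolic ribosomal proteins kept their level, against 15.9% of all genes and 52.2% of genes at 100 FPKM or more.

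The gelatin level was kept by 2434 genes, 15.9% of those tested, in that the 95% interval of the change lay within 1.2-fold either way. For 2968 genes neither a change nor a kept level could be shown, and these had a median of 0.97 FPKM. The rule can be met only where the interval is narrow: 0 of 3266 genes under 1 FPKM met it, against 7.45% of those from 1 to 10 FPKM, 29.1% of those from 10 to 100 FPKM and 52.2% of those above. Kept genes are therefore mostly genes of high level, and they carried 52.1% of the summed FPKM on gelatin. Of the kept genes, 479 had an adjusted p under 0.05, small changes within the limit.

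The 10 kept genes of highest level were Eef1a1, Ftl1, Gapdh, Ptma, Rps2, Rplp1, Hsp90ab1, Ppia, Npm1 and Rpl23a; the call for Ptma is lost in 5 alternative fits. Eef1a1 (chromosome 9, 78478453 to 78481724), the elongation factor that brings aminoacyl-tRNA to the ribosome, was at 6078 and 6062 FPKM on gelatin and 6289 and 6298 FPKM in F2i (interval of the log2 fold change 0.03 to 0.20). Gapdh, the glycolytic enzyme often used to normalise, was at 3564 and 3354 FPKM on gelatin and 3270 and 3466 FPKM in F2i. Its samples overlapped between the groups. Of 15 reference genes used in qPCR, 8 kept their level. Of the 9 at 100 FPKM or more, 5 kept it, a share near the 52.2% of all genes in that range. B2m, the light chain of MHC class I, rose from 12.6 and 11.2 FPKM to 42.3 and 39.4 FPKM (1.84, standard error 0.08, adjusted p = 2.3e-14).

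Of 84 cytosolic ribosomal proteins tested, 70 kept their level (median log2 fold change 0.06). Without the fold limit 24 rose and 6 fell, against 34.5% and 33.3% of all genes. Of the 79 at 100 FPKM or more, 69 kept their level, against 52.2% of all genes in that range. Rpl39l, a paralogue of Rpl39 known from testis, rose from 3.31 and 2.32 FPKM to 17.4 and 17.7 FPKM (2.70, standard error 0.16, adjusted p = 1.4e-12). Of 74 oxidative phosphorylation subunits 37 kept their level and none changed 2-fold. Without the fold limit 28 of them rose and 13 fell, against the same 34.5% and 33.3% of all genes. At 100 FPKM or more 16 of 39 oxidative phosphorylation subunits kept their level, no larger a share than that of all genes there. From 10 to 100 FPKM 21 of 35 kept their level, against 29.1% of all genes in that range. Among 39 proteasome subunits, 22 kept their level. At 100 FPKM or more 16 of 24 kept it, against 52.2% of all genes there. From 10 to 100 FPKM 6 of 10 kept it, against 29.1%. A fall of at least 2-fold was seen for 3 (7.69%, against 9.82% of all genes), the immunoproteasome subunits Psmb9 (-2.44), Psmb8 (-2.07) and Psmb10 (-1.60). The constitutive subunits Psmb7, Psmb3 and Psmb4 kept their level, with the call for Psmb3 lost in 2 alternative fits and that for Psmb4 in 3. The B2m rise and the immunoproteasome falls thus ran opposite, although both serve antigen presentation.

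Of 20 sterol synthesis genes, 10 kept their level and none changed 2-fold, with Fdps, Hmgcs1, Srebf2 and Idi1 the highest kept members. From 10 to 100 FPKM 8 of 17 kept their level, against 29.1% of all genes in that range. Of 20 glycolysis genes, 6 kept their level, among them Pkm (1682 and 1720 FPKM on gelatin, 1485 and 1558 FPKM in F2i) and Aldoa. At 100 FPKM or more 4 of 12 glycolysis genes kept their level, a smaller share than the 52.2% of all genes there. From 10 to 100 FPKM 2 of 8 kept it, against 29.1%. Pdk1, a kinase that inhibits pyruvate dehydrogenase, fell from 53.0 and 52.5 FPKM to 8.37 and 8.58 FPKM (log2 fold change -2.58, standard error 0.05, adjusted p = 1.9e-21). Hk1, a hexokinase, rose from 20.2 and 21.1 FPKM to 41.2 and 42.8 FPKM (1.09). Of 12 RNA polymerase II subunits, 3 kept their level (Polr2e, Polr2g and Polr2l) and none changed 2-fold. From 10 to 100 FPKM 2 of 10 subunits kept their level, against 29.1% of all genes there. The call for Polr2g is lost in 1 alternative fit and that for Polr2l in 4.

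Some genes kept the gelatin level in F2i although their level in F was different. Mafk (chromosome 5, 139791536 to 139802653), a small Maf factor, was at 5.50 and 5.91 FPKM on gelatin, 10.9 and 10.8 FPKM in F and 5.81 and 5.78 FPKM in F2i. Ptch1, the Hedgehog receptor, was at 17.2 and 19.6 FPKM on gelatin, 26.7 and 27.4 FPKM in F and 17.8 and 16.7 FPKM in F2i. Lama1, Tiparp, Ralgds, Manba, Arl4a and Abl2 had the same shape, with F above both other groups in each. In the other direction, Slc22a17, a transporter of the organic cation family, was at 9.52 and 9.43 FPKM on gelatin, 5.43 and 4.77 FPKM in F and 9.10 and 9.89 FPKM in F2i. Fabp5, a fatty acid binding protein, was at 29.3 and 26.1 FPKM on gelatin, 17.4 and 17.6 FPKM in F and 28.1 and 28.1 FPKM in F2i. Mpi, 6820431F20Rik, Gm3604, Slc4a11, Trim11 and Adrb3 were likewise lowest in F. These genes were picked for the distance of F from the other groups, so their F level is given without a test. Of these 16 genes, Ptch1, Mpi, 6820431F20Rik and Adrb3 met the limit in every alternative fit. The call is lost in 10 fits for Manba, in 6 for Lama1, Tiparp, Ralgds and Trim11, in 5 for Mafk, in 4 for Abl2, Fabp5 and Gm3604, in 3 for Arl4a, in 2 for Slc22a17 and in 1 for Slc4a11.

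**Figure D5:**
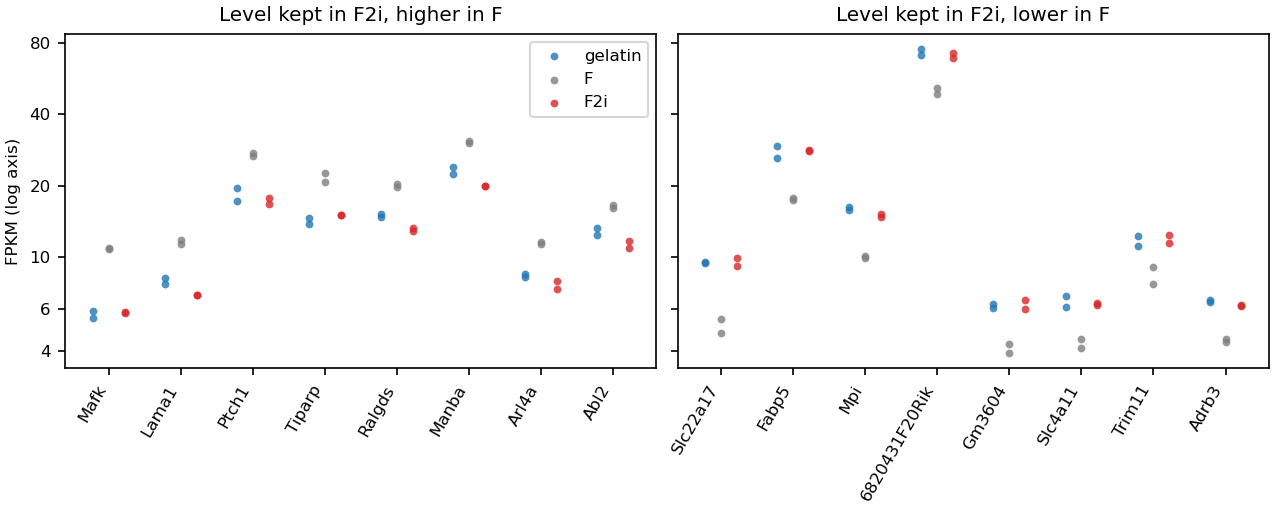
FPKM (log axis) by sample of the 16 kept genes whose F level lay farthest above (left) or below (right) the gelatin and F2i levels. Gelatin and F2i points lie side by side for each gene while both F points stand apart, as for Mafk at 10.9 and 10.8 FPKM against 5.50 to 5.91 FPKM.

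Other genes kept the gelatin level in F2i and stood apart in NB2i. That condition had N2B27 medium without serum or feeders, and the part of each cannot be told apart. Igf2 (chromosome 7, 142650768 to 142666816), the imprinted growth factor, was at 55.0 and 50.7 FPKM on gelatin, 49.3 and 49.8 FPKM in F2i and 1.07 and 1.09 FPKM in NB2i. Dppa2, a factor of ESC chromatin, was at 45.6 and 45.7 FPKM on gelatin, 46.7 and 45.0 FPKM in F2i and 7.74 and 8.97 FPKM in NB2i. Flnc, Rcn3 and Zyx had the same order. In the other direction, Slc1a5, a glutamine transporter, was at 72.5 and 68.2 FPKM on gelatin, 73.7 and 75.3 FPKM in F2i and 178 and 175 FPKM in NB2i. Cyba, Syngr1, Nqo1 and Lama1 were also highest in NB2i. These genes, too, were picked for their NB2i level, which is given without a test. Igf2, Dppa2, Rcn3 and Zyx met the limit in every alternative fit, whereas the call is lost in 7 fits for Flnc and Nqo1, in 6 for Cyba, Syngr1 and Lama1 and in 2 for Slc1a5.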

How the data were processed

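RNA of N33 ESCs was measured by poly-A RNA-seq in 2 replicates of each of 4 culture conditions. The authors sequenced single ends on a BGISEQ-500, aligned reads to mm10 by Bowtie2 and estimated gene levels by RSEM. Per gene, the authors deposited an expected count, an estimate of its reads that is not normalized; the FPKM deposited by the authors is scaled to depth and transcript length. Genes not listed for a sample were taken as 0.

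After rounding, counts entered edgeR 4.0.16 (glmQLFit, glmQLFTest; R 4.3.3) after TMM normalization (factors 0.9774 to 1.028), all 8 samples in one fit, for genes that reached 10 counts in 2 or more samples. Benjamini-Hochberg adjustment ran over all genes tested. The standard error was the estimate over the root of its F statistic. A level was kept where the 95% interval lay within 1.2-fold either way. A gene without counts in a group was set against a floor of 3 counts over that group. FPKM are given per sample, or as means where stated; intervals of count ratios cover counting error only. DESeq2 1.42.0 and limma 3.58.1 were alternatives. Gene positions and promoters are RefSeq's on GRCm38.p6. Scripts were tested on simulated data.

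Samples, gene lists and genes to be named were chosen with earlier results of these data known. Genes named were the 10 largest rises and falls of at least 1 FPKM, the 10 highest kept genes, kept genes (at least 5 FPKM) farthest from F or NB2i, all members of the pluripotency, ERK and DNA methylation lists, up to 4 changed and 4 kept members of each other list, and genes the study follows. Other genes were singled out after their values were seen.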

Additional observations from a re-analysis of the deposited data

How the results depend on the processing

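For genes named by rule that passed the test and were not called kept, directions held in every alternative that tested them. Genes singled out later, such as Zic2, Nkd2, Rnf43, Stat3, Socs3, Id1 and Id3, were not put through this check. Genes higher and lower at least 2-fold numbered 1786 and 1501; DESeq2 gave 1624 and 1358, and the summing of the Zscan4, Usp17l and Tcstv families, chosen after seeing the data, 1777 and 1501. At least 10 counts in every sample gave 974 and 879, with fewer genes tested (12730), limma on log2(FPKM + 1), a scale that understates low genes, 785 and 667, and glmTreat against a log2 fold change of 1 gave 1229 higher and 930 lower. Leaving out each replicate in turn gave 1677 to 1755 higher, 1412 to 1494 lower and 1802 to 2077 kept. The kept number, 2434, rests on its limit, with 392 at 1.1-fold and 6944 at 1.5-fold, and was 1775 by DESeq2. Of 75 named kept genes 39 stayed within the limit in every alternative and 36 did not, 20 of them by DESeq2 and each of the 36 in at least one fit without a replicate; beside those given with their results these were Atp5g2, Atp5g3, Pcgf3, Ring1, Rpl41 and Rplp0. Of 94 named 2-fold changes 84 held wherever they were tested, but 42 of the 94 had too few counts for the filter of 10 in every sample and were not tested there; Gm4340, Gm3317 and H2-Q8 (DESeq2), Klf5 (without gelatin replicate 1), Egr1, Egr2, Tdrd1, Amn, Hk1 and Psmb8 (limma on log2(FPKM + 1)) were lost once each; the cause was not tested. The summed fibroblast markers were 8.12 times as high in F2i as on gelatin by FPKM and 7.40 times by CPM.

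The labels number replicates 1 and 2 in each group, but deviations of samples that share a number did not correlate (r -0.0849 to 0.051). With the replicate number as a block, 1780 genes were higher, 1494 lower and 2373 kept. Depth limits genes under 1 FPKM, none of which could be shown to keep its level.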
